A study of Homo sapiens with 4 samples.

Results

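Polycomb repressive complex 2 (PRC2) was followed through 10 genes, EZH1, EZH2, SUZ12, EED, RBBP4, RBBP7, JARID2, AEBP2, PHF19 and MTF2, out of 18417 genes measured. A gene was taken from the probe sets to which the platform annotation gives exactly 1 gene symbol. Each of the 10 genes had 1 such probe set, so no choice among probe sets was needed. The cells were H1299, an established human lung carcinoma line without p53 of its own, into which a doxycycline-switched (tet-on) construct for mouse wild-type p53 had been placed. Of 4 whole-transcript Affymetrix arrays, 2 came from cells before induction and 2 from cells given 0.5 µg/mL doxycycline for 24 hours, all grown with 10% tet-free serum. Every array therefore came from the construct line, and no array shows doxycycline in cells without the construct. The labels call the 2 arrays of a group technical replicates and name no separate cultures, so p-values measure only the spread between arrays. The labels also do not say how many clones the line holds. Values are RMA levels in log2 units, where a difference of 1 is a doubling. A level depends on the probes of its set, so levels of different genes are not compared one with another. Some levels are set against the median of many genes, only as a rough guide to background.

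PRC2 places methyl groups on histone H3 (H3K27), the mark of silenced developmental genes. Its core holds a catalytic subunit, EZH2 or EZH1, with SUZ12, EED and a histone-binding protein, RBBP4 or RBBP7. EZH2 is typical of dividing cells and EZH1 of resting ones. Accessory proteins sort the core into a form with a Polycomb-like protein (PHF1, MTF2 or PHF19) and a form with JARID2 and AEBP2.

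After induction 5 of the 10 genes fell, 1 rose and 4 did not reach the threshold. The falls were those of EZH2, SUZ12, RBBP7, PHF19 and MTF2, and the rise was that of EZH1. The threshold was 0.05 for limma's moderated two-sided p, adjusted across the 18417 genes by the Benjamini-Hochberg method. At that threshold 24.6% of all genes were called lower, 20.6% higher and 45.1% in either direction. The excess of lower over higher calls did not hold under other scalings, with 4237 genes lower and 4277 higher after quantile normalization again and 4182 and 4372 after centring each array on its median. The median log2 fold change of the 10 genes was -0.34, against 0.00 for all genes. The induced and uninduced values did not overlap for any of the 10 genes, but that was so for 66.8% of all genes. With 2 arrays a group, an exact permutation test of a single gene cannot give a two-sided p below 0.333.

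**Figure D1:**
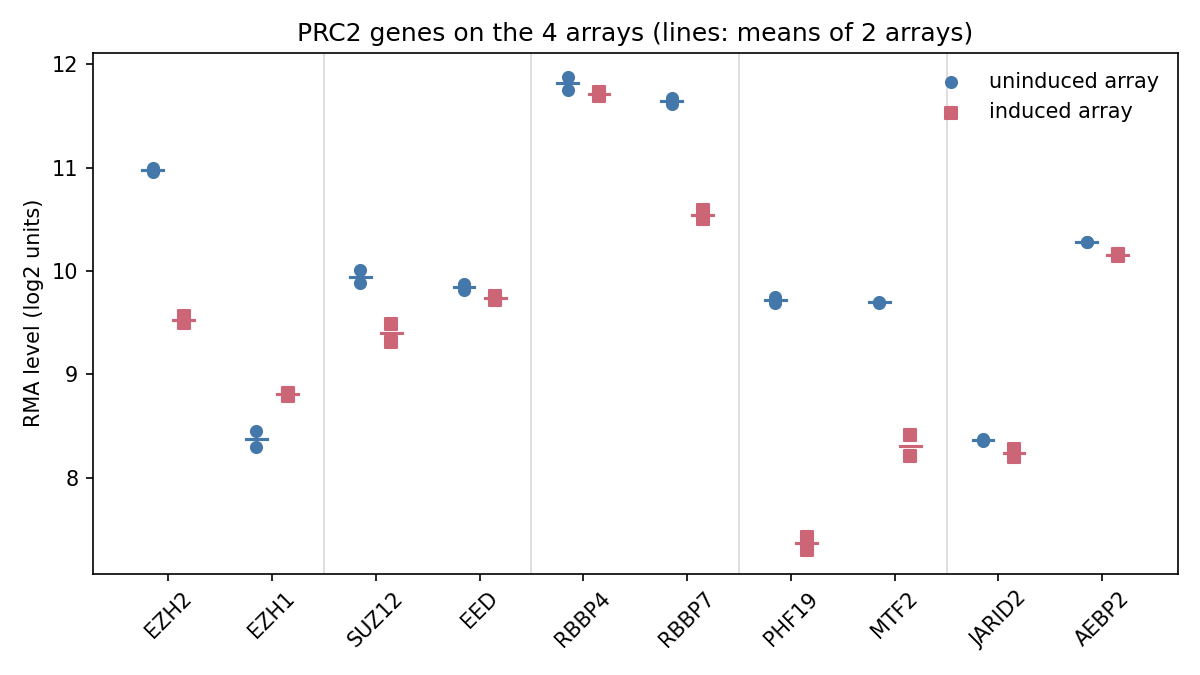
RMA level in log2 units of each PRC2 gene on the 2 uninduced (circles) and 2 induced (squares) arrays; short lines are the means of 2 arrays. The groups lie far apart for EZH2, RBBP7, PHF19 and MTF2 and close together for EED, RBBP4, JARID2 and AEBP2; heights of different genes are not comparable.

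The catalytic subunits moved in opposite directions. EZH2 (probe set 8143663), the main H3K27 methyltransferase of dividing cells, stood at 10.96 and 11.00 on the uninduced arrays and at 9.50 and 9.56 on the induced arrays. Both induced values were more than a full log2 unit under both uninduced ones. The means were 10.98 ± 0.028 and 9.53 ± 0.042 (SD, n = 2 arrays each), a 2.73-fold fall (log2 fold change -1.45, SE 0.083, limma adjusted p = 7.7e-06). Of the 18417 genes, 570 had a lower log2 fold change than EZH2. EZH1 (probe set 8015685), the weaker methyltransferase of resting cells, stood at 8.45 and 8.30 uninduced and at 8.82 and 8.79 induced. Its means were 8.375 ± 0.11 and 8.805 ± 0.021 (SD, n = 2 each), a 1.35-fold rise (log2 fold change 0.43, SE 0.090, limma adjusted p = 0.0056). The gap between the groups of EZH1 was larger than the spread within either group. The call of EZH1 ended without uninduced array 2 (limma adjusted p = 0.089), without induced array 1 (0.075) and without induced array 2 (0.065), and held without uninduced array 1 (0.045).

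On each array the EZH2 level was set against the EZH1 level. EZH2 minus EZH1 was 2.51 and 2.70 on the uninduced arrays and 0.68 and 0.77 on the induced arrays. The difference fell by 1.88 log2 units with induction, with a 95% interval of -2.17 to -1.59 from the errors of both genes in limma's fit, combined as independent (SE 0.12). The exact permutation test of the 4 array values gave p = 0.333, the smallest it can give. The size of the difference on 1 array has no meaning of its own, because the probe sets differ, but its change does not depend on that. It is 1 of 6 pairs of PRC2 genes compared in this way.

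Promoter windows of 6 of the 10 PRC2 genes held the letters of an E2F site, against 3.99% of all genes with a window. EZH2 and EZH1 were among the 6, and their windows are shown. RefSeq gives 2 windows for EZH2, and only the 1 that holds the letters is printed. E2F factors switch on genes of DNA replication and bind a core of TTTCCCGC, TTTGGCGC, TTTCGCGC or TTTGCCGC, searched on both strands. The windows run from 250 bases before to 50 after a start site, as RefSeq gives them on GRCh38.p14, and are written 5′ to 3′ on the gene's strand with the E2F letters in capitals. The array's own build is not given in the sources used here. EZH2 lies on the minus strand at chr7:148884242-148884541 and its match begins at base 2 after the start. EZH1 lies on the minus strand at chr17:42744991-42745290 and its match begins at base -115, counted back from the start.
EZH2: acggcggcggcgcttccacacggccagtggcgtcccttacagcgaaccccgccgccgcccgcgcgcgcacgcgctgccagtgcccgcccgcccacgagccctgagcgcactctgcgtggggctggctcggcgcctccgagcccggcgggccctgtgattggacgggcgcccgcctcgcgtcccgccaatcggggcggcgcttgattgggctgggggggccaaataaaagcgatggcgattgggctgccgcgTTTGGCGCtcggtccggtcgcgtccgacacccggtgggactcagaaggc
EZH1: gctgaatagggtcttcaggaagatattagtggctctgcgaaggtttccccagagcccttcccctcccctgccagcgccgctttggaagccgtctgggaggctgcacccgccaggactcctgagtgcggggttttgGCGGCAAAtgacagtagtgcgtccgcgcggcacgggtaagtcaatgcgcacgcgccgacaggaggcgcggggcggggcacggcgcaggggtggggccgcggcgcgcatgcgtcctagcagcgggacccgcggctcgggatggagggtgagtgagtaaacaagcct

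The other core subunits differed among themselves. SUZ12 (probe set 8006325), the scaffold that holds the catalytic subunit and the histone binder together, stood at 9.88 and 10.01 uninduced and at 9.31 and 9.49 induced. It fell 1.46-fold (log2 fold change -0.55, SE 0.10, limma adjusted p = 0.0028). The groups of SUZ12 did not overlap, but its call ended without uninduced array 1 (limma adjusted p = 0.056), without uninduced array 2 (0.090) and without induced array 1 (0.054). EED (probe set 7942914), the subunit that reads the finished mark, stood at 9.82 and 9.87 uninduced and at 9.72 and 9.76 induced. All 4 EED values lay close together, with a log2 fold change of -0.11 (SE 0.082, 95% interval -0.30 to 0.089, limma adjusted p = 0.37). An EED change as large as that of EZH2 lies outside this interval.

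Set against SUZ12 on the same array, EZH2 was 1.08 and 0.99 higher uninduced and 0.19 and 0.07 higher induced. The change was -0.91 with a 95% interval of -1.21 to -0.60. Set against EED, EZH2 stood at 1.14 and 1.13 uninduced and at -0.22 and -0.20 induced, a change of -1.35 with a 95% interval of -1.62 to -1.07. Both intervals lie below 0, so the change of EZH2 was more negative than that of SUZ12 and than that of EED, of which EED itself was not called. The exact permutation p was 0.333 for each pair.

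RBBP4 and RBBP7, closely related WD40 proteins that bind histones H3 and H4, are shared with other chromatin complexes. RBBP7 (probe set 8171516) stood at 11.67 and 11.62 uninduced and at 10.59 and 10.50 induced. It fell 2.14-fold (log2 fold change -1.10, SE 0.085, limma adjusted p = 3.3e-05), and both induced arrays lay about a log2 unit under the uninduced ones. RBBP4 (probe set 7899813) stood at 11.88 and 11.75 uninduced and at 11.73 and 11.69 induced. The nearest values of the RBBP4 groups, 11.75 and 11.73, almost met, and the log2 fold change was -0.11 (SE 0.088, 95% interval -0.31 to 0.10, limma adjusted p = 0.40). RBBP4 minus RBBP7 went from 0.21 and 0.13 to 1.14 and 1.19, a change of 0.995 with a 95% interval of 0.71 to 1.28 and an exact permutation p of 0.333. The 2 paralogs therefore differed in their change, and of the 2 only RBBP7 passed the test on its own. Whether transcripts of one paralog reach the probes of the other was not tested.

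**Figure D2:**
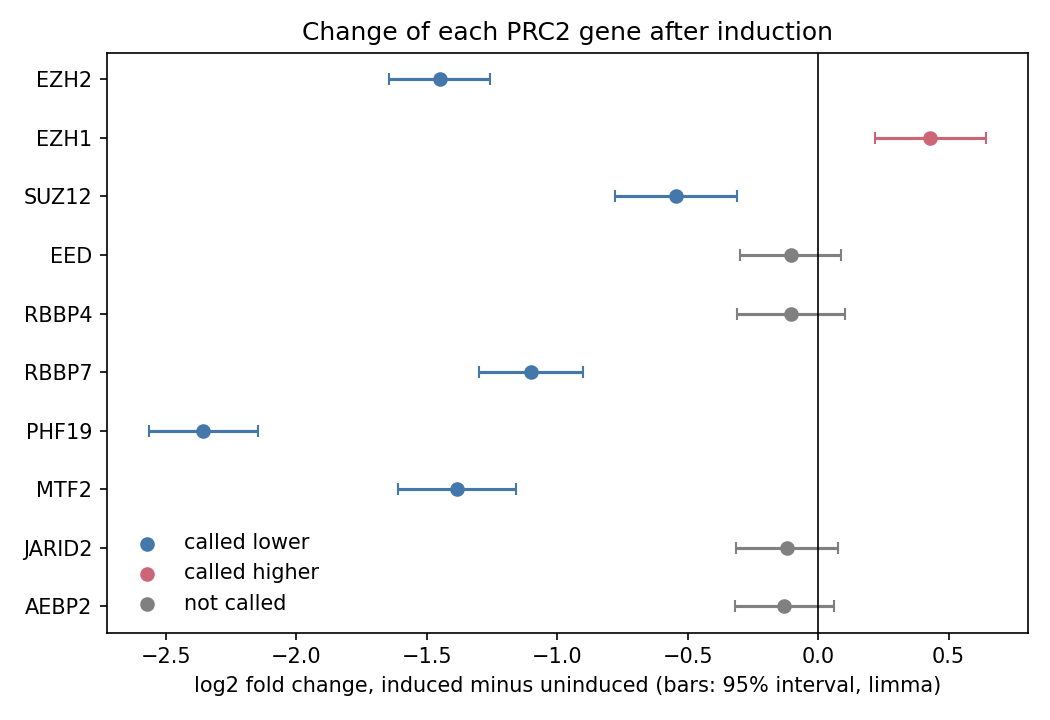
Log2 fold change of each PRC2 gene, induced minus uninduced, with its 95% interval from limma (bars); blue marks genes called lower, red called higher and grey not called. PHF19 lies lowest at -2.36, EZH1 alone lies above 0, and the intervals of EED, RBBP4, JARID2 and AEBP2 include 0.

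Among the accessory genes the Polycomb-like group changed most. These proteins read methylated H3K36 with a Tudor domain and bring PRC2 to CpG islands. PHF19 (probe set 8163807) stood at 9.75 and 9.69 uninduced and at 7.43 and 7.30 induced. It fell 5.12-fold (log2 fold change -2.36, SE 0.089, limma adjusted p = 1.4e-06), the largest change of the 10, and 144 genes had a lower log2 fold change. The induced PHF19 values lay under 7.65, the median of all tested genes after induction, where RMA can compress a fold. MTF2 (probe set 7903032) stood at 9.69 and 9.70 uninduced and at 8.21 and 8.41 induced, a 2.61-fold fall (log2 fold change -1.39, SE 0.096, limma adjusted p = 2.0e-05). PHF19 minus MTF2 went from 0.06 and -0.01 to -0.78 and -1.11, a change of -0.97 with a 95% interval of -1.28 to -0.66 and an exact permutation p of 0.333. PHF1, the remaining gene of this trio and not one of the 10, went the other way. It stood at 8.77 and 8.76 uninduced and at 9.75 and 9.78 induced, a 2.0-fold rise (log2 fold change 1.0, SE 0.081). Thus of 3 Polycomb-like genes, PHF19 and MTF2 were lower and PHF1 higher after induction.

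The genes of the other form showed little difference. JARID2 (probe set 8116998), which anchors PRC2 to nucleosomes, stood at 8.35 and 8.37 uninduced and at 8.20 and 8.28 induced, with a log2 fold change of -0.12 (SE 0.083, 95% interval -0.32 to 0.076, limma adjusted p = 0.31). AEBP2 (probe set 7954279), a zinc finger protein that stimulates the enzyme, stood at 10.28 on both uninduced arrays and at 10.16 and 10.14 induced, with a log2 fold change of -0.13 (SE 0.081, 95% interval -0.32 to 0.060, limma adjusted p = 0.25). Both sets of induced values lay just under the uninduced ones. JARID2 minus AEBP2 was -1.93 and -1.91 uninduced and -1.96 and -1.86 induced, a change of 0.010 with a 95% interval of -0.26 to 0.28 and an exact permutation p of 1. A difference in change between JARID2 and AEBP2 was not detected, and the interval bounds it at about 0.3 log2 units either way.

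**Figure D3:**
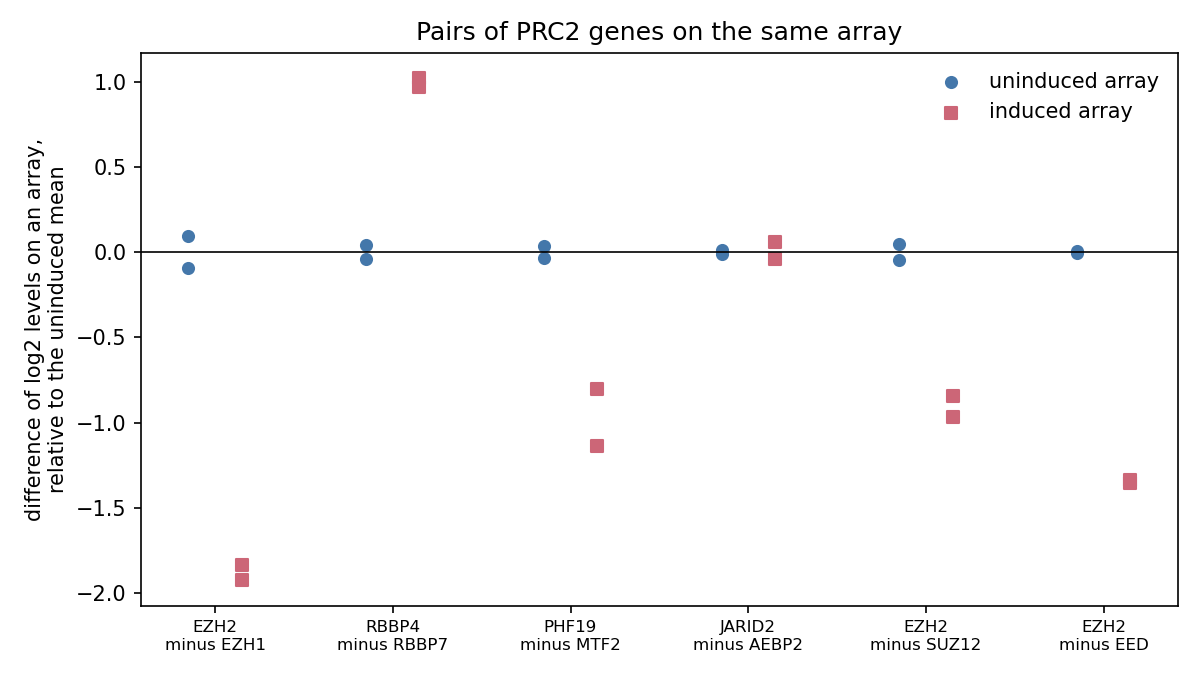
Difference of log2 levels of 2 PRC2 genes on the same array, shown relative to the mean of the uninduced arrays, for 2 uninduced (circles) and 2 induced (squares) arrays in each of 6 pairs. The mean of the induced arrays lies at -1.88 for EZH2 minus EZH1 and at 0.995 for RBBP4 minus RBBP7, and the induced arrays lie on both sides of 0 for JARID2 minus AEBP2.

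For these 6 pairs limma was also fitted to every gene's level minus that of the reference gene, and 5 passed at an adjusted p under 0.05, all except JARID2 against AEBP2. The reference gene's noise enters every row of such a fit, and its p-values are therefore too small. It called 81.6% of all genes against EZH1, 94.6% against RBBP7, 96.2% against MTF2, 50.2% against AEBP2, 78.8% against SUZ12 and 44.8% against EED, so the intervals above are the ones to read.

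Less common PRC2 partners were measured too. Of 5 accessory genes outside the 10, 2 rose (PHF1 and LCOR), 1 fell (LCORL) and 2 stayed under the threshold. LCOR, whose locus also encodes a PRC2-binding protein, stood at 8.85 and 8.87 uninduced and at 9.35 and 9.54 induced (log2 fold change 0.59, SE 0.095). The LCOR call ended without uninduced array 1 (limma adjusted p = 0.066) or without uninduced array 2 (0.063). Its paralog LCORL fell by 0.95 on the log2 scale (SE 0.092), from 8.88 and 8.83 to 7.83 and 7.99. EPOP, an elongin-binding partner, had a log2 fold change of -0.17 (SE 0.14), with 7.62 and 7.17 on the induced arrays on either side of the uninduced 7.58 and 7.54. The EPOP change passed the test without induced array 1, at -0.39 (limma adjusted p = 0.034). EZHIP, an inhibitor that mimics the histone tail, had a log2 fold change of 0.020 (SE 0.098).

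E2F letters stood in the windows of EZH2, EZH1, SUZ12, PHF19, MTF2 and AEBP2, in 6 of the 15 windows that RefSeq gives for the 10 genes. The stretches around the other 4 matches are printed so that the site and its orientation can be compared. SUZ12 is on the plus strand at chr17:31936778-31936865, PHF19 on the minus strand at chr9:120877293-120877380, MTF2 on the plus strand at chr1:93079248-93079332 and AEBP2 on the plus strand at chr12:19440409-19440496, all on GRCh38.p14 with the E2F letters in capitals.
SUZ12: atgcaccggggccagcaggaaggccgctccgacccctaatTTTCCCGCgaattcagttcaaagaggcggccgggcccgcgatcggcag
PHF19: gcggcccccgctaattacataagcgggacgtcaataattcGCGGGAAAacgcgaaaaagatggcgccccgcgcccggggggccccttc
MTF2: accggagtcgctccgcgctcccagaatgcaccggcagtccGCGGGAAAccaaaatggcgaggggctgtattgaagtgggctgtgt
AEBP2: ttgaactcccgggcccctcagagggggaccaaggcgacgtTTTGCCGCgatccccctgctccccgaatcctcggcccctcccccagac

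The E2F letters were read as TTTGGCGC in EZH2, TTTCCCGC in SUZ12 and TTTGCCGC in AEBP2, and on the opposite strand as GCGGGAAA in PHF19 and MTF2 and GCGGCAAA in EZH1. The match began at base -189 in SUZ12, -152 in PHF19 and -150 in AEBP2, and at base 6 after the start in MTF2. Of all 35116 windows 3.31% held such letters, and of all 27305 genes with a window 3.99%. Of the 14239 tested genes with a window, 5.51% did so, with 8.79% of the genes called lower, 5.63% of those called higher and 3.84% of those not called. Within PRC2 a match was found in 4 of the 5 genes that fell (not in RBBP7), in EZH1, which rose, and in AEBP2 but not the other 3 genes that were not called. Whether the match goes with the direction in PRC2 was not tested. CCAAT letters, bound by NF-Y, stood in windows of 7 of the 10 genes (39.7% of all genes, 34.6% of all windows). They occurred at 4 places in 1 of the 2 EZH2 windows, at bases -94, -66, -47 and -13. The cell cycle element (CHR) TTTGAA was found in SUZ12 only (18.2% of all genes, 15.2% of all windows), at base -173. A p53 half-site was found in EZH1 only (8.06% of all genes, 6.63% of all windows), at base 41 after the start, and a pair of half-sites up to 13 bases apart in none of the 10 genes. Such pairs are so rare (0.0366% of all genes) that a count of 0 in 10 genes carries no information. All motifs were searched on both strands. No 2 motifs overlapped in these windows. A match of letters does not show binding.

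**Figure D4:**
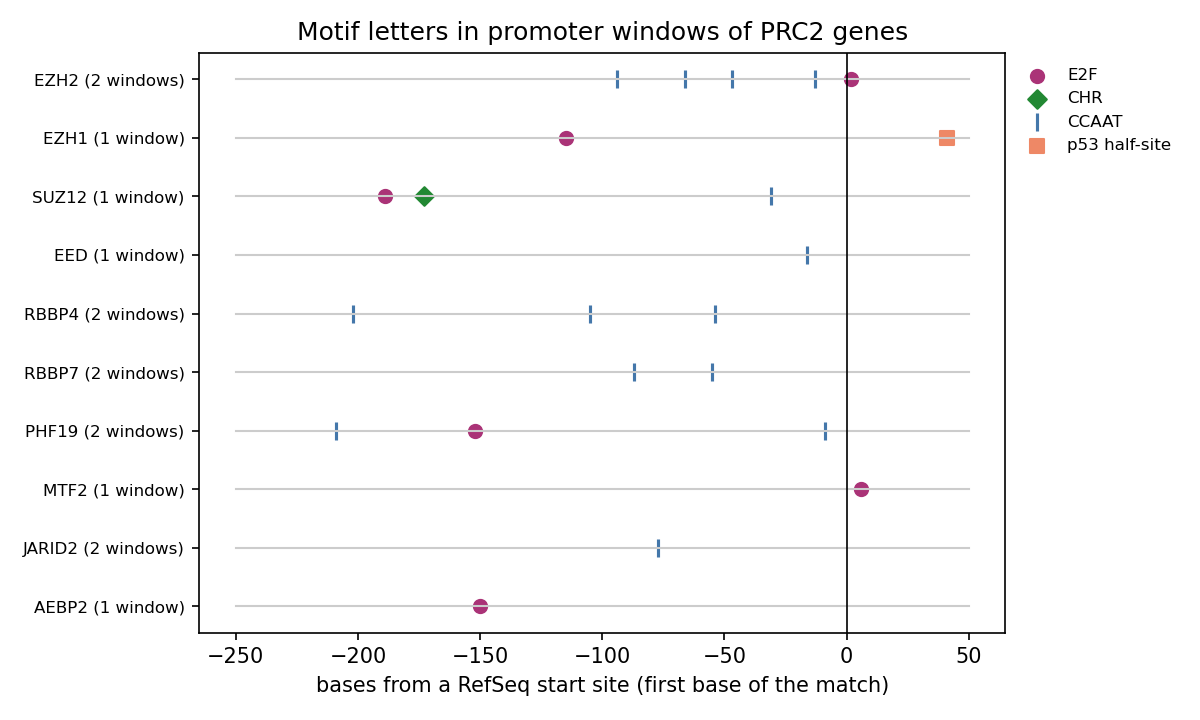
Positions of E2F, cell cycle element (CHR), CCAAT and p53 half-site letters in the promoter windows of the 10 PRC2 genes, in bases from a RefSeq start site; windows of genes with 2 start sites are drawn on 1 line. E2F letters lie close to the start in EZH2 and MTF2 and over 100 bases before it in SUZ12, EZH1, PHF19 and AEBP2. The windows of RBBP4 overlap, and its CCAAT letters at -54 and -202 are the same place, drawn once for each window.

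Genes that act with, beside or against PRC2 were taken as lists and are described by counts. Each count is to be read beside the 20.6% of all genes called higher and the 24.6% called lower. PRC1, the complex that ubiquitinates histone H2A and reads the PRC2 mark, had 24 genes measured, of which 7 were called higher, 8 lower and 9 neither (median log2 fold change -0.04). PCGF3, a RING finger partner of variant PRC1, rose by 1.98 (SE 0.087), and KDM2B, which binds unmethylated CpG islands, rose by 1.25 (SE 0.15). The KDM2B call ended without either uninduced array (limma adjusted p = 0.051 without array 1 and 0.054 without array 2). SCMH1, a Sex comb on midleg homologue, fell by 1.62 (SE 0.085). Of 5 genes of the H2A deubiquitinase PR-DUB, FOXK1 rose by 1.05 (SE 0.086), its scaffold ASXL1 fell by 1.35 (SE 0.081) and ASXL2, ASXL3 and FOXK2, named after their values were seen, did not pass.

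Of 9 genes of H3K27 demethylation, the MLL3/4 complexes and H3K27 acetylation, 2 rose, 3 fell and 4 did not pass (median -0.22). KMT2C, the MLL3 methyltransferase, rose by 1.2 (SE 0.086). KMT2D, the MLL4 methyltransferase, fell by 0.64 (SE 0.082), and PAGR1, a subunit of the same complexes, fell by 0.79 (SE 0.085). The third gene that fell was PAXIP1, by 0.47 (SE 0.092), and NCOA6, CREBBP and EP300 did not pass. Of the demethylase genes, which like those 4 were named after their values were seen, KDM6B had a log2 fold change of 0.30 (SE 0.092, limma adjusted p = 0.034) and KDM6A one of 0.43 (SE 0.19, limma adjusted p = 0.11). KDM6A values were spread, at 7.5 and 7.88 uninduced and 7.86 and 8.38 induced, and the groups overlapped. Whether the KDM6B call holds without single arrays was not examined.

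RBBP4 and RBBP7 also serve NuRD, SIN3, CAF-1, MuvB, HAT1 and NURF complexes, the last listed here through BPTF and SMARCA1. Of 25 genes of those complexes 7 rose, 12 fell and 6 did not pass (median -0.23). CHAF1A, the large subunit of the CAF-1 histone chaperone, fell by 1.83 (SE 0.14), LIN9 of MuvB fell by 1.26 (SE 0.11) and CHD4, the NuRD remodeller, fell by 1.14 (SE 0.085).

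In a list of 12 regulators around the E2F and RB families, transcript levels were lower in 8 and higher in 4 (median -0.90). The list also holds MYBL2 and FOXM1, which belong to neither family and had its largest falls, so its median is not that of the families alone. MYBL2, FOXM1 and RBL1, regulators of the cell cycle programme, had log2 fold changes of -2.77 (SE 0.11), -2.47 (SE 0.089) and -1.89 (SE 0.089). The 4 that rose, named after their values were seen, were RB1 by 1.43, RBL2 by 1.42, TFDP2 by 1.12 and E2F3 by 0.40. Of 14 S-phase genes regulated by E2F, 13 fell and 1, PCNA, rose by 0.59 (median -2.15). PCNA, the sliding clamp of DNA polymerase, was likewise named after its value was seen. CCNE2, CDC6 and RRM2 had log2 fold changes of -3.40 (SE 0.088), -3.36 (SE 0.13) and -3.03 (SE 0.092). The induced values of CCNE2 (6.03 and 6.16) and CDC6 (6.09 and 6.47) lay near 6.03, the induced median of markers of foreign cell types, so they may not be above background, and the sizes and order of these folds are uncertain. The log2 fold change of EZH2, -1.45, was less negative than those of 10 of these 14 genes, and that of PHF19, -2.36, was close to the list's median. These values stand side by side, and no test of a shared cause was made.

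Of 17 measured genes listed as reported targets of repression by EZH2, 6 rose, 1 fell and 10 did not pass (median 0.18). Over all genes 20.6% were called higher and 24.6% lower. SLIT2, a secreted guidance ligand, went from 7.02 and 6.81 to 10.95 and 11.08, a rise of 4.10 log2 units (SE 0.10). RARB, a retinoic acid receptor, rose by 1.09 (SE 0.13), from 5.45 and 5.46 to 6.35 and 6.73. The uninduced RARB values lay under 5.86, the uninduced median of markers of cell types foreign to this line. They may not be above background, so the size of the RARB rise is uncertain. The other rises, named after their values were seen, were RAP1GAP by 0.35, TIMP2 by 0.34, MSMB by 0.30 and CDKN2B by 0.255. Their limma adjusted p-values were 0.029, 0.012, 0.027 and 0.036, in that order. Whether these 4 calls hold without single arrays was not examined. MSMB, at 3.84 uninduced and 4.14 induced, lay under 5.86 in both groups. CDKN2A, the INK4A/ARF locus that PRC2 represses in many dividing cells, fell by 0.71 (SE 0.094), from 8.58 and 8.48 to 7.90 and 7.75. Histone marks were not measured, so these levels say nothing of H3K27 methylation. Of 11 microRNA genes reported to target EZH2 or SUZ12, among them MIR101-1, MIR26A1 and MIR138-1, 0 passed limma's test at an adjusted p under 0.05, and 0 had an unadjusted p under 0.05. Their log2 fold changes ran from -0.075 to 0.13. Over all genes 45.1% were called in either direction. The median level of these microRNA genes was 5.52 uninduced and 5.445 induced, under the 5.86 and 6.03 of markers of foreign cell types. Several of these probe sets may not be above background, so a change there could go unseen. Probe sets of microRNA genes on this type of array do not read the mature microRNA, so its level is not known from them.

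**Figure D5:**
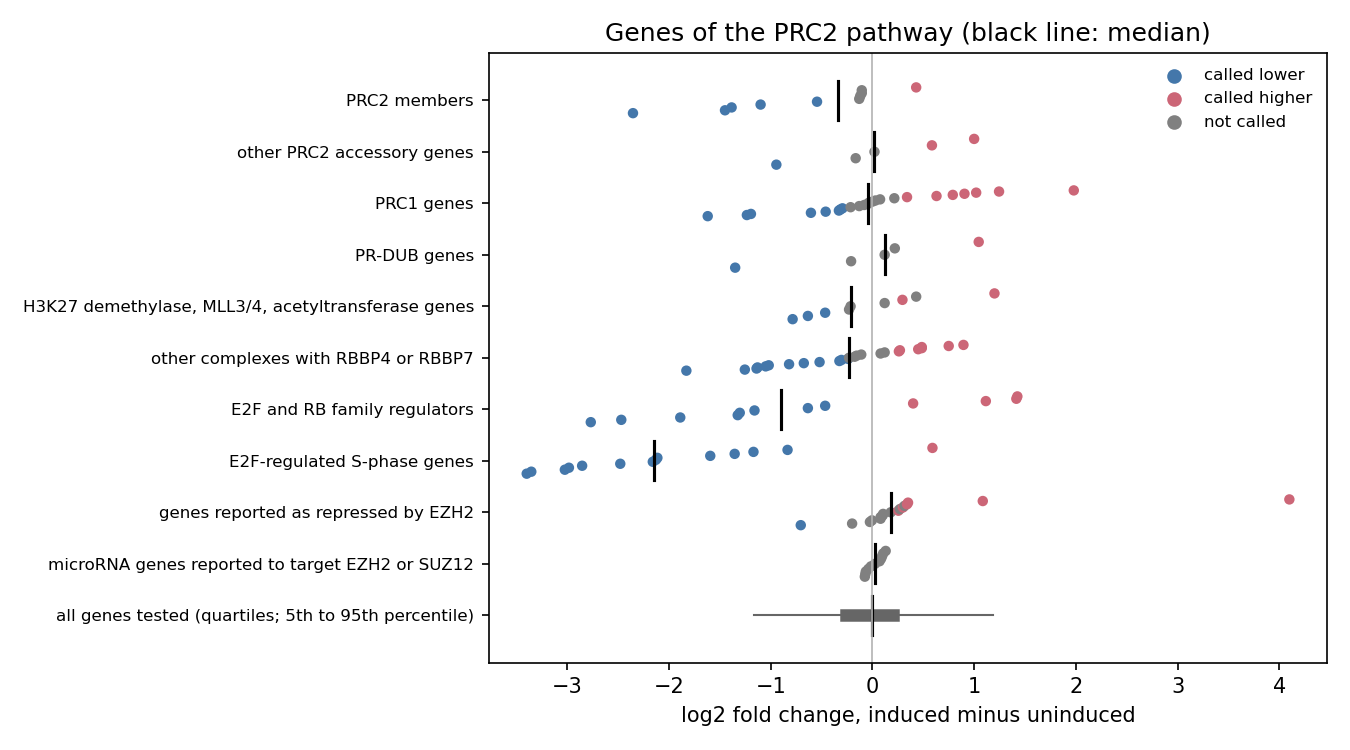
Log2 fold change, induced minus uninduced, of each measured gene in 10 lists around PRC2 (points; blue called lower, red called higher, grey not called; black lines are medians), with the quartiles and the 5th to 95th percentile of all 18417 genes at the bottom. The S-phase genes lie furthest to the left (median -2.15), and PRC1 genes spread to both sides (median -0.04).

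The genes whose profiles over the 4 arrays were most like that of EZH2, each profile centred on its mean, were LRRC8D, PPP3R1, TMEM19, TNFRSF21 and FRRS1. Their root mean square distance from EZH2 was 0.010 to 0.021 log2 units, and 232 genes lay within 0.1. Nearest to EZH1 were ASPSCR1, HSF1, F8, TSPO and TOR2A, at 0.0043 to 0.011, with 1150 genes within 0.1. With 2 groups of 2 arrays, such likeness mostly says that the changes were of equal size.

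Across all genes the 2 uninduced arrays correlated at r = 0.997 and the 2 induced arrays at r = 0.995, against 0.917 to 0.921 between groups, and array medians lay between 7.26 and 7.33. As to markers of epithelium and lung lineage, the keratin gene KRT18 stood between 10.98 and 11.17 on the 4 arrays. The lung lineage gene NKX2-1 stood between 5.91 and 6.28. That is close to 5.86 and 6.03, the medians of markers of foreign cell types, so NKX2-1 may not be above background. The deposited values hold no call above background and differ by probe set, so they do not settle which lineage genes are present. The median of 12 markers of blood, fibroblast and endothelial cells was 5.86 uninduced and 6.03 induced, and 1 of them, CD3E, was called, higher by 0.26. The CD3E call ended when any array was left out. SCGB1A1 and KRT8 rose by 2.03 (SE 0.094) and 1.15 (SE 0.13), and VIM fell by 0.40 (SE 0.084), a call that ended without uninduced array 1 (limma adjusted p = 0.065) or 2 (0.088). Of the 8 genes listed as lung epithelial markers, 3 were called higher, 1 lower and 4 neither. The lower one was VIM, a mesenchymal marker, so no epithelial marker of the list was called lower. The remaining higher call, SFTPC, was named after its value was seen and rose by 0.295 (SE 0.087, limma adjusted p = 0.026). Whether the SFTPC call holds without single arrays was not examined. The part of these markers in the PRC2 values was not tested. In a bulk sample, fewer cells that carry a transcript cannot be told apart from less of it in each cell, and here the share of dividing cells was not measured.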

How the data were processed

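RNA levels were measured on 4 arrays. The deposited values are log2 expression levels, made by the authors with RMA in Expression Console (Affymetrix) per the submitters' processing notes. The sources used here give no version or build. RMA equalises the arrays' distributions, so a shift of all transcripts is hidden, and it compresses folds of dim genes.

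Of 33297 rows, 19460 had 1 gene symbol, 1754 several (never named) and 12083 none. Of the rows with 1 symbol, 19429 had a gene ID that matched RefSeq's GRCh38.p14 gene table. The brightest probe set stood for a gene. limma 3.58.1 in R 4.3.3 was fitted to all 18417 genes (lmFit, eBayes, 2 residual and 7.20 total degrees of freedom). Intervals use its moderated error. In pairs, a planned fit relative to a reference gene understates the error, so combined errors, added after the data were seen, are given. Both fits were tested on simulated data.

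The members and lists were chosen with earlier results of these data known, so lists carry no test. Named were the 10 members, 5 accessory genes, the 3 called genes of largest change in each other list and the 5 nearest profiles of EZH2 and EZH1. KRT18, NKX2-1 and the microRNA genes named were chosen after their values were seen. List genes without a probe set of 1 symbol were not analysed here. Alternatives covered scaling, dim probe sets, probe set averaging, all rows, the prior, treat, a replicate block and each array left out. Figures used Python 3.11.15 and matplotlib 3.10.9.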

Additional observations from a re-analysis of the deposited data

How the results depend on the processing

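The 5 falls held under quantile normalization again, centring on array medians, a filter at the 40th percentile of level, averaged probe sets, all rows, a robust prior with an intensity trend, treat (a test against 1.2-fold) and the replicate block. Leaving out single arrays left 4 or 5 of them, with SUZ12 the one lost. The count of PRC2 genes called higher was 0 under treat and 0 to 1 when single arrays were left out, where the lone array of a group is assumed to vary like the others. Of the values of the 10 genes under these alternatives, 113 kept their side of the threshold, 7 lost the call (EZH1 or SUZ12) and 0 reversed. Log2 fold changes ranged from -1.48 to -1.40 for EZH2, -2.42 to -2.29 for PHF19, -1.49 to -1.29 for MTF2, -1.15 to -1.05 for RBBP7, -0.64 to -0.46 for SUZ12 and 0.36 to 0.51 for EZH1. EZH2 against EZH1 ranged from -1.98 to -1.79, and no pair changed its call.

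Over all genes, 3789 calls higher and 4522 lower became 2373 and 2670 without uninduced array 1, 2316 and 2643 without uninduced array 2, and 2502 and 2977 under treat. Same-numbered arrays deviated together at r = 0.22, and with 2 numbers, called technical, they were not taken as pairs; the replicate block gave 3588 calls higher and 4232 lower over all genes, and 1 higher and 5 lower for PRC2. Having 2 arrays a group limits the precision, and low induced levels may limit the fold of PHF19.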
